A study of Arabis alpina with 12 samples.

Results

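In Arabis alpina, a perennial crucifer, 23 of 34220 genes were enriched in V3 buds, with bud means within 1.5-fold between the genotypes. Each had at least 3 times as much transcript in V3 buds as in the shoot apex of both genotypes studied. They were chosen by their levels in CPM (a gene's count scaled to the reads in genes of its library). The bud mean had to be at least 3 times the apex mean in Aatoe2_IL and in wild type and at least 5 CPM in both. The lowest bud library had to lie above the highest apex library within each genotype, and the bud mean of Aatoe2_IL divided by that of wild type had to lie between 0.67 and 1.5. HB40, HB53, NCED3, GA20OX2, GA2OX4 and CKX1 were left out by name, although 0 of these 6 met every limit. The bud to apex ratios and the bud genotype ratios below therefore describe the choice and were not tested. A ratio within those limits is also no test that a gene was unaffected by genotype.

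The groups were V3 buds of Aatoe2_IL, V3 buds of wild type, shoot apices of Aatoe2_IL and shoot apices of wild type, with 3 libraries each. All were in the accession Pajares, from plants given 8 weeks of long days and then 8 weeks of vernalization (cold) in short days, and both organs were dissected. Aatoe2_IL is named after AaTOE2, and TOE2 of Arabidopsis is a transcription factor of the APETALA2 family. Which lesion the line carries is not given in the sources used here, and with 1 such line sampled, an effect of AaTOE2 and other differences of the line cannot be told apart. The labels number the replicates and do not name the plants behind them. The p-values given therefore reflect the spread of these libraries alone, part of which may be technical.

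Axillary buds form in the axils of leaves and either grow out as branches or stay dormant. Whether the V3 buds sampled were dormant was not tested here. In Arabidopsis, dormancy of axillary buds involves the transcription factor BRC1, the homeobox genes HB21, HB40 and HB53 that act downstream of it, and NCED3, an enzyme of abscisic acid synthesis. Cytokinin promotes outgrowth, and cytokinin oxidases such as CKX1 degrade it. Of the 23 genes, 0 appear in the authors' lists, which are the only files that pair identifiers with Arabidopsis orthologues. They are therefore given by identifier alone, with no role, position or sequence. All 23 identifiers end in h1, and 0 had a further copy (h2 or above) under the same number in the table.

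Reads in genes ranged from 9411616 to 12309478 per library. Reads outside genes came to between 13.4% and 21.5% of all reads counted, most in wild-type bud replicate 1 and in Aatoe2_IL apex replicate 2 (21.1%). In bulk samples, fewer cells of a type and less RNA per cell cannot be told apart. HB53 averaged 37.4 ± 5.30 CPM in Aatoe2_IL buds and 5.60 ± 4.03 CPM in Aatoe2_IL apices (SD, n = 3 each). In wild type it averaged 19.8 ± 2.45 CPM in buds and 0.987 ± 0.344 CPM in apices, with no overlap of the tissues in either genotype. HB53 is a gene that the choice names, so its values are no independent check of the tissue labels. Other named genes of bud dormancy did not all lie this way. NCED3 had a bud to apex ratio of 4.80 in Aatoe2_IL and 2.67 in wild type, with overlapping tissues in wild type. The bud to apex ratio was 1.91 in Aatoe2_IL and 3.14 in wild type for HB40, but 1.33 in Aatoe2_IL and 0.964 in wild type for DRM2, and 1.72 in Aatoe2_IL and 0.765 in wild type for SEN1, both with overlapping tissues in both genotypes. BRC1 and HB21 were not analysed here, since no file names them.

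Enrichment in buds was rare among the genes measured. A bud mean of at least 5 CPM in both genotypes was found for 15462 genes. Among these, buds held at least 3 times the apex level in Aatoe2_IL for 70 genes, in wild type for 63 and in both for 40. The tissues did not overlap within either genotype for 38 of the 40. Of these 38, 23 lay within the limits on the bud genotype ratio, 11 lay below 0.67 and 4 above 1.5. Together the 23 genes took between 736 and 897 CPM in Aatoe2_IL buds and between 869 and 947 CPM in wild-type buds, against 118 to 171 CPM in Aatoe2_IL apices and 112 to 160 CPM in wild-type apices. Gene lengths were not used here, so that differences in CPM between genes are of reads and not of transcript amounts.

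**Figure D1:**
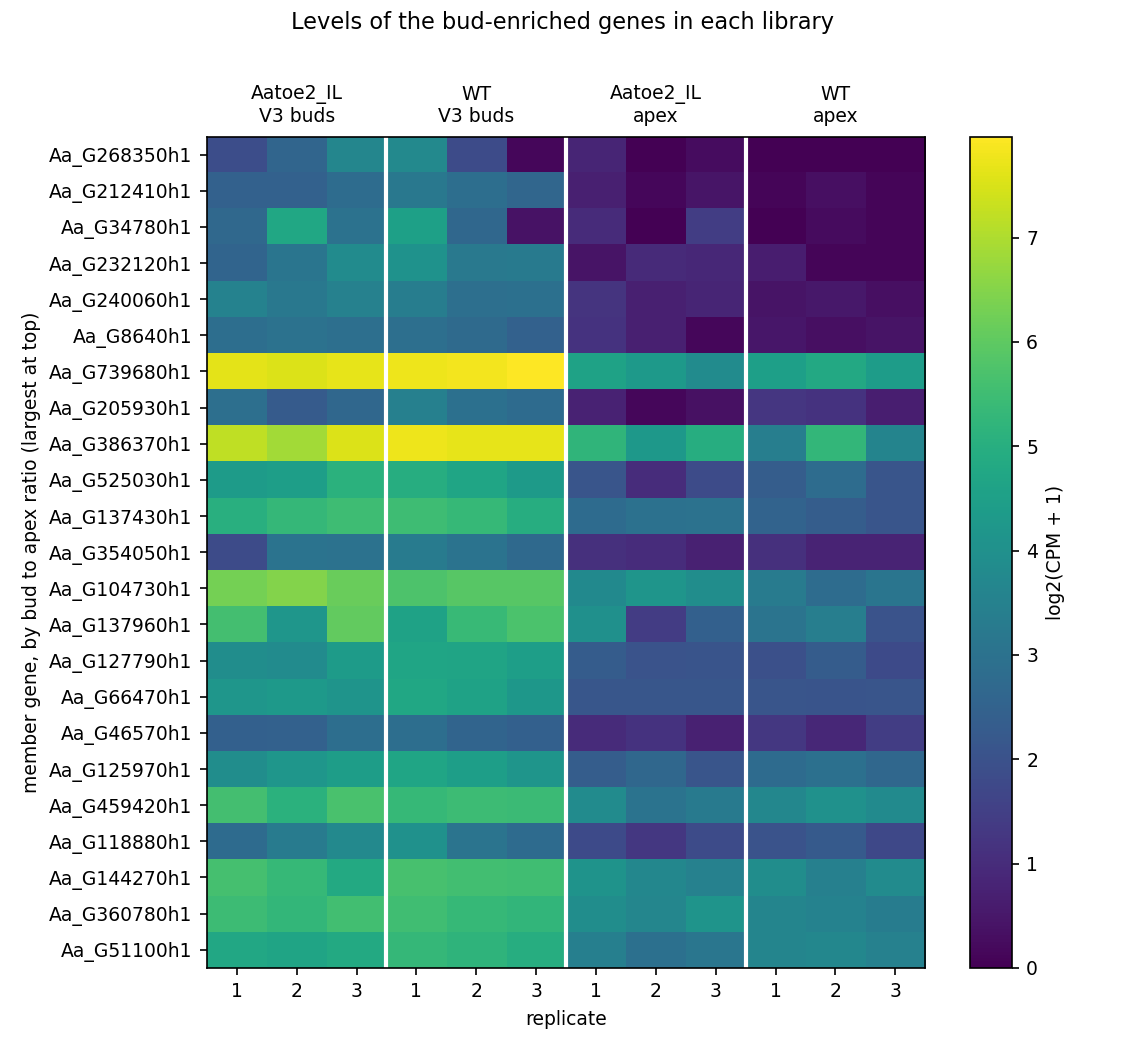
Level of each of the 23 genes in each of the 12 libraries as log2(CPM + 1), by group and replicate, with genes ordered by the ratio of the bud to the apex mean over all libraries. Each row is brighter in the 6 bud libraries than in the 6 apex libraries, except that Aa_G34780h1 and Aa_G268350h1 are dark in wild-type bud replicate 3.

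The genes fell along a range of bud to apex ratios. This ratio was at least 10 in both genotypes for 7 genes and lay between 3 and 5 in both for 6. Its median was 5.78 in Aatoe2_IL, over 23 genes, and 7.26 in wild type, over the 22 genes with reads in wild-type apices. The ratio was smaller in Aatoe2_IL than in wild type for 14 genes and larger for 9. All 6 bud libraries lay above all 6 apex libraries for 21 genes, the exceptions being Aa_G34780h1 and Aa_G268350h1.

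The largest ratios over all libraries belonged to genes that averaged under 1 CPM in apices. Aa_G268350h1 had the largest, at 35.3. It had 2.66, 5.01 and 11.7 CPM in buds of Aatoe2_IL against 0.789, 0 and 0.190 CPM in Aatoe2_IL apices, a ratio of 19.8. In wild type it had 12.6, 2.53 and 0.0987 CPM in buds and 0 counts in every apex library, which makes it at least 61.4-fold higher in buds by a floor of 3 counts over the apex group. Of the 145 counts in wild-type buds, 120 were in replicate 1 and 1 in replicate 3. Without wild-type bud replicate 1, without Aatoe2_IL bud replicate 1 or without Aatoe2_IL bud replicate 3 the gene no longer met the limits, nor did it when the libraries were scaled by TMM or by DESeq2 size factors.

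Aa_G212410h1 was second, with a ratio of 22.9 over all libraries. It had 4.57, 4.54 and 6.02 CPM in buds of Aatoe2_IL against 0.614, 0.103 and 0.380 CPM in Aatoe2_IL apices. In wild type it had 8.06, 6.32 and 5.13 CPM in buds against 0.0812, 0.249 and 0.0831 CPM in apices. Its bud libraries were thus less uneven than those of Aa_G268350h1 in each genotype, and all lay far above its apex libraries. The ratio was 13.8 in Aatoe2_IL and 47.2 in wild type, and the wild-type ratio rests on 5 counts in apices.

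Aa_G34780h1 (ratio of 22.6 over all libraries) was also uneven between replicates. It had 5.53, 25.6 and 7.08 CPM in buds of Aatoe2_IL against 0.965, 0 and 1.71 CPM in Aatoe2_IL apices. In wild type it had 22.1, 5.37 and 0.296 CPM in buds against 0, 0.166 and 0.0831 CPM in apices. A single library was high in each bud group, replicate 2 in Aatoe2_IL and replicate 1 in wild type. In wild type the pooled counts gave 110-fold more in buds (95% interval 37.3 to 537), with 3 counts in apices. Of the 265 counts in wild-type buds, 211 were in replicate 1 and 3 in replicate 3. The interval covers counting error only, not this spread between replicates, and is no test of a contrast that the choice set. The gene no longer met the limits without wild-type bud replicate 1 or without Aatoe2_IL bud replicate 1 or 3.

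Aa_G232120h1, Aa_G240060h1 and Aa_G8640h1 also stayed below 1 CPM on average in both apex groups. Aa_G232120h1 averaged 8.59 ± 4.30 CPM in Aatoe2_IL buds and 0.711 ± 0.315 CPM in Aatoe2_IL apices, and in wild type 10.9 ± 4.25 CPM in buds and 0.245 ± 0.280 CPM in apices (SD, n = 3 each). Aa_G240060h1 was steadier, with 9.64 ± 1.40 CPM in Aatoe2_IL buds and 0.898 ± 0.368 CPM in Aatoe2_IL apices, and in wild type 7.52 ± 1.64 CPM in buds and 0.330 ± 0.083 CPM in apices. Aa_G8640h1 averaged 6.64 ± 0.319 CPM in Aatoe2_IL buds and 5.64 ± 1.03 CPM in wild-type buds. In total 7 of the 23 genes averaged under 1 CPM in both apex groups and 14 averaged 1 CPM or more in both.

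**Figure D2:**
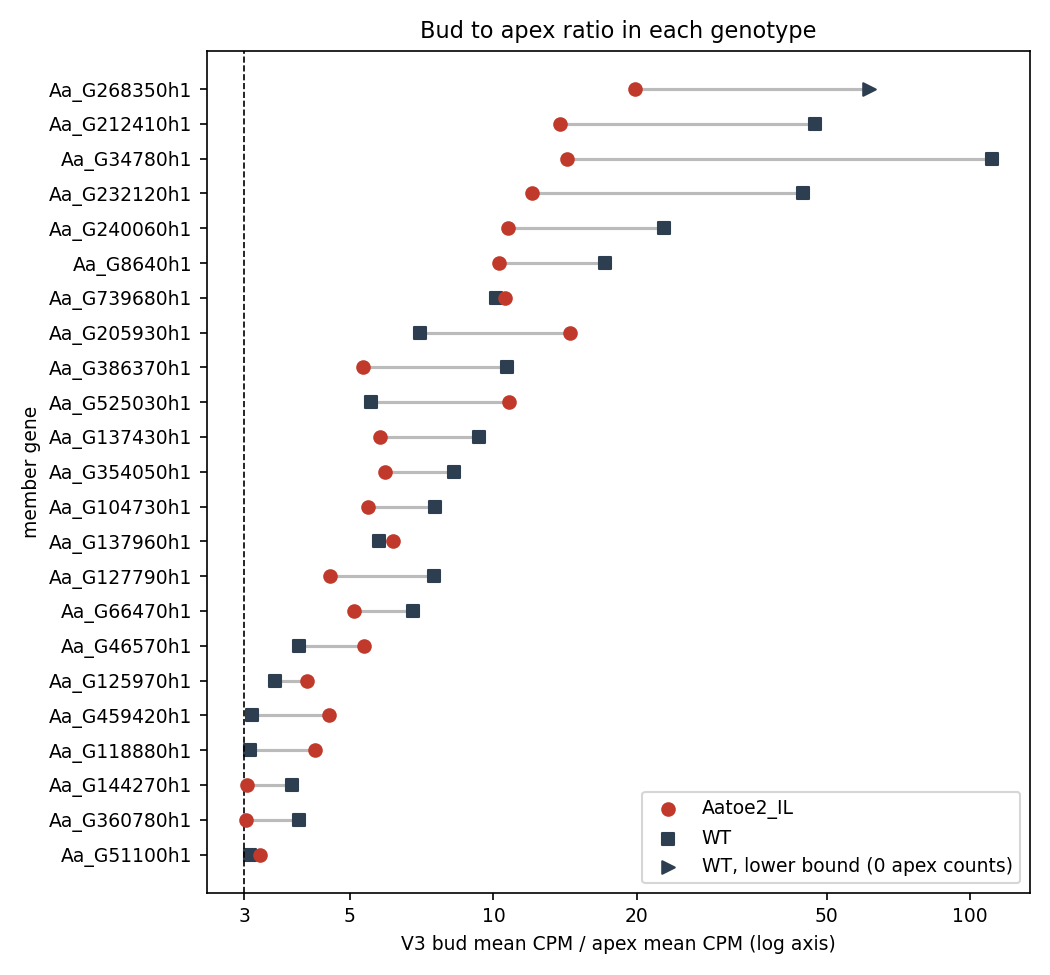
Ratio of the V3 bud mean to the apex mean of each gene, on a log axis, in Aatoe2_IL (circles) and wild type (squares), with the lower limit of 3 dashed and a triangle for the lower bound of Aa_G268350h1, which had 0 counts in wild-type apices. The genes run from 35.3 at the top to 3.15 at the bottom by the ratio over all libraries, and the genotypes lie furthest apart among the genes at the top.

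The most read of the 23 were Aa_G739680h1 and Aa_G386370h1, which also had reads in every apex library. Aa_G739680h1 had 197, 188 and 203 CPM in buds of Aatoe2_IL against 23.1, 19.0 and 13.5 CPM in Aatoe2_IL apices. In wild type it had 217, 228 and 249 CPM in buds against 21.6, 26.9 and 20.03 CPM in apices. Its ratio was 10.6 in Aatoe2_IL and 10.1 in wild type. It met the limits whichever library was left out.

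Aa_G386370h1 had 145, 116 and 187 CPM in buds of Aatoe2_IL against 35.8, 17.9 and 30.4 CPM in Aatoe2_IL apices. In wild type it had 219, 204 and 204 CPM in buds against 9.67, 37.9 and 11.1 CPM in apices. Wild-type buds lay close together, whereas wild-type apex replicate 2 stood above the other two. The ratio was 5.33 in Aatoe2_IL and 10.7 in wild type. The gene no longer met the limits without Aatoe2_IL bud replicate 3.

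Among the genes of intermediate ratio, Aa_G137430h1 had 31.6, 38.8 and 44.0 CPM in Aatoe2_IL buds and 44.0, 39.6 and 30.0 CPM in wild-type buds, a nearly equal mean with fully overlapping libraries. Aa_G525030h1 had 24.6 ± 7.48 CPM in Aatoe2_IL buds and 24.7 ± 5.35 CPM in wild-type buds (SD, n = 3 each). Aa_G137960h1 had 47.5, 17.2 and 65.7 CPM in Aatoe2_IL buds and 23.2, 40.8 and 50.9 CPM in wild-type buds. Its apex levels of 15.1, 1.65 and 4.46 CPM in Aatoe2_IL had a coefficient of variation (SD as a percentage of the mean) of 100.3%, against 56.4% in Aatoe2_IL buds, with replicate 2 lowest in both tissues. Aa_G66470h1 was even between apex libraries, with 3.42, 3.41 and 3.42 CPM in Aatoe2_IL and 3.33, 3.16 and 3.32 CPM in wild type.

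The 6 genes with a ratio between 3 and 5 in both genotypes were expressed in all 12 libraries. Aa_G459420h1 had 47.4, 32.9 and 50.7 CPM in Aatoe2_IL buds and 13.3, 7.13 and 8.54 CPM in Aatoe2_IL apices, against 39.7, 43.5 and 41.8 CPM in wild-type buds and 11.8, 15.4 and 13.0 CPM in wild-type apices. Aa_G360780h1 had 43.6, 38.1 and 45.7 CPM in Aatoe2_IL buds and 14.03, 11.7 and 16.4 CPM in Aatoe2_IL apices, against 45.0, 39.7 and 37.1 CPM in wild-type buds and 11.5, 10.6 and 9.14 CPM in wild-type apices. In both genes the bud libraries of the genotypes overlapped.

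Aa_G144270h1 had 48.3, 39.8 and 27.5 CPM in Aatoe2_IL buds and 45.2 to 49.1 CPM in wild-type buds, so that Aatoe2_IL bud replicate 3 lay below the other bud libraries. This gene no longer met the limits without Aatoe2_IL bud replicate 1 or 2, or without Aatoe2_IL apex replicate 2 or 3. Aa_G125970h1 averaged 17.2 ± 3.29 CPM in Aatoe2_IL buds and 4.24 ± 0.978 CPM in Aatoe2_IL apices (SD, n = 3 each), and it met the limits whichever library was left out. Aa_G118880h1 had 5.84, 8.88 and 12.6 CPM in Aatoe2_IL buds and 15.3, 7.37 and 5.82 CPM in wild-type buds, and it no longer met the limits under either other scaling. Aa_G205930h1, Aa_G354050h1 and Aa_G46570h1 had few reads in all groups. Their bud libraries lay between 2.55 and 10.05 CPM, against 0.103 to 1.75 CPM in their apex libraries.

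Several genes lay close to a limit of the choice. Aa_G51100h1 and Aa_G118880h1 had bud to apex ratios of 3.08 each in wild type, just inside, while Aa_G354270h1 (2.90) and Aa_G147140h1 (2.88) were just outside. In Aatoe2_IL, Aa_G360780h1 (3.02) and Aa_G144270h1 (3.04) were just inside and Aa_G630990h1 (2.70) and Aa_G356690h1 (2.28) just outside. For the bud mean, Aa_G212410h1 (5.04 CPM) and Aa_G46570h1 (5.11 CPM) were the lowest inside in Aatoe2_IL and Aa_G271510h1 (4.97 CPM) and Aa_G468090h1 (3.74 CPM) the highest outside. In wild type the lowest inside were Aa_G268350h1 (5.06 CPM) and Aa_G46570h1 (5.26 CPM), and the highest outside Aa_G142440h1 (3.99 CPM) and Aa_G360250h1 (3.72 CPM). The bud genotype ratio was 0.674 for Aa_G127790h1 and 0.699 for Aa_G205930h1, against 0.667 for Aa_G321720h1 and 0.664 for Aa_G395870h1 beyond the lower limit. At the upper limit Aa_G104730h1 (1.40) and Aa_G34780h1 (1.38) were inside and Aa_G418790h1 (1.53) and Aa_G356880h1 (1.88) outside. The smallest gaps between the lowest bud and the highest apex library were 1.41 and 1.87 CPM in Aatoe2_IL, in Aa_G354050h1 and Aa_G268350h1, and 0.0987 and 0.130 CPM in wild type, in Aa_G268350h1 and Aa_G34780h1. Overlap of the tissues was the sole failed limit for 0 genes.

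In buds the mean was lower in Aatoe2_IL than in wild type for 14 of the 23 genes and higher for 9, and the ratio had a median of 0.958. The libraries of the genotypes overlapped for 18 genes and did not for 5, beside 22.5% of all genes tested (9.36% higher and 13.2% lower in Aatoe2_IL). The limits on the ratio used this contrast, so nothing is read from these shares. Of the 5, Aa_G739680h1, Aa_G386370h1, Aa_G51100h1 and Aa_G127790h1 were lower in Aatoe2_IL buds. Aa_G51100h1 had 26.1, 24.3 and 27.5 CPM in buds of Aatoe2_IL against 38.7, 35.0 and 30.5 CPM in wild-type buds. Aa_G127790h1 had 14.03, 13.2 and 19.9 CPM in buds of Aatoe2_IL against 24.5, 24.2 and 21.2 CPM in wild-type buds. Aa_G104730h1 was the only one of the 5 that was higher in Aatoe2_IL buds.

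The genotypes were then compared in the apex, the comparison whose difference the choice did not set. The limits bound the apex level of each genotype only from above. They did so through the least bud to apex ratio of 3 and through the lowest bud library, which every apex library had to lie below. Aa_G104730h1 had 12.6, 16.6 and 14.1 CPM in Aatoe2_IL apices against 8.94, 6.06 and 7.48 CPM in wild-type apices. Each Aatoe2_IL library lay above each wild-type library. The gene rose 1.91-fold in Aatoe2_IL apices, a log2 fold change of 0.93 (SE 0.15) with an edgeR adjusted p of 0.00927. In buds it had 77.5, 89.5 and 69.9 CPM in Aatoe2_IL against 52.0, 58.4 and 58.9 CPM in wild type, again without overlap, so that it was higher in Aatoe2_IL in both tissues, by a smaller ratio in buds. Whether the 2 genotype effects differ was not tested, because the choice bounded the one in buds. Without Aatoe2_IL apex replicate 2 the adjusted p of edgeR was 0.0552 (log2 fold change 0.83), and without wild-type apex replicate 2 it was 0.0596 (log2 fold change 0.83). It ranged from 0.00423 to 0.0596 over the 12 fits that left out a library, and the gene was called in 10 of them.

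The filter on low counts, which reads all 12 libraries, kept all 23 genes, but 7 of them were kept only through the bud libraries in which the choice made them high. These 7 were Aa_G205930h1, Aa_G212410h1, Aa_G232120h1, Aa_G240060h1, Aa_G268350h1, Aa_G34780h1 and Aa_G8640h1. The other 16 also passed a filter on the apex libraries alone. Of the 23 genes 1 was called higher and 0 lower by edgeR, and the gene called was among the 16. Of all 19520 genes tested, 215 were called, 0.292% as higher and 0.809% as lower. DESeq2 called the same 1 of the 23, Aa_G104730h1, and 0 lower. At an unadjusted p under 0.05 there were 7 of the 16, 3 with a fitted value above 0 and 4 below (9 of the 23), beside 16.1% of all genes. The genotype groups did not overlap in the apex for 8 of the 23 genes, 7 of them among the 16, beside 20.2% of all genes. Of the 8, Aatoe2_IL was the higher group for 5, beside 9.19%, and the lower group for 3, beside 11.0%. Among the 16, fitted values were above 0 for 9 and below 0 for 7, with a median log2 fold change of 0.03, against -0.0042 over all genes. The median size of the log2 fold change was 0.49 over the 16, against 0.16 over all genes. The 16 had a median apex level of 6.10 CPM, against 23.55 CPM for all genes, and the part of this lower level in the larger size was not tested.

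**Figure D3:**
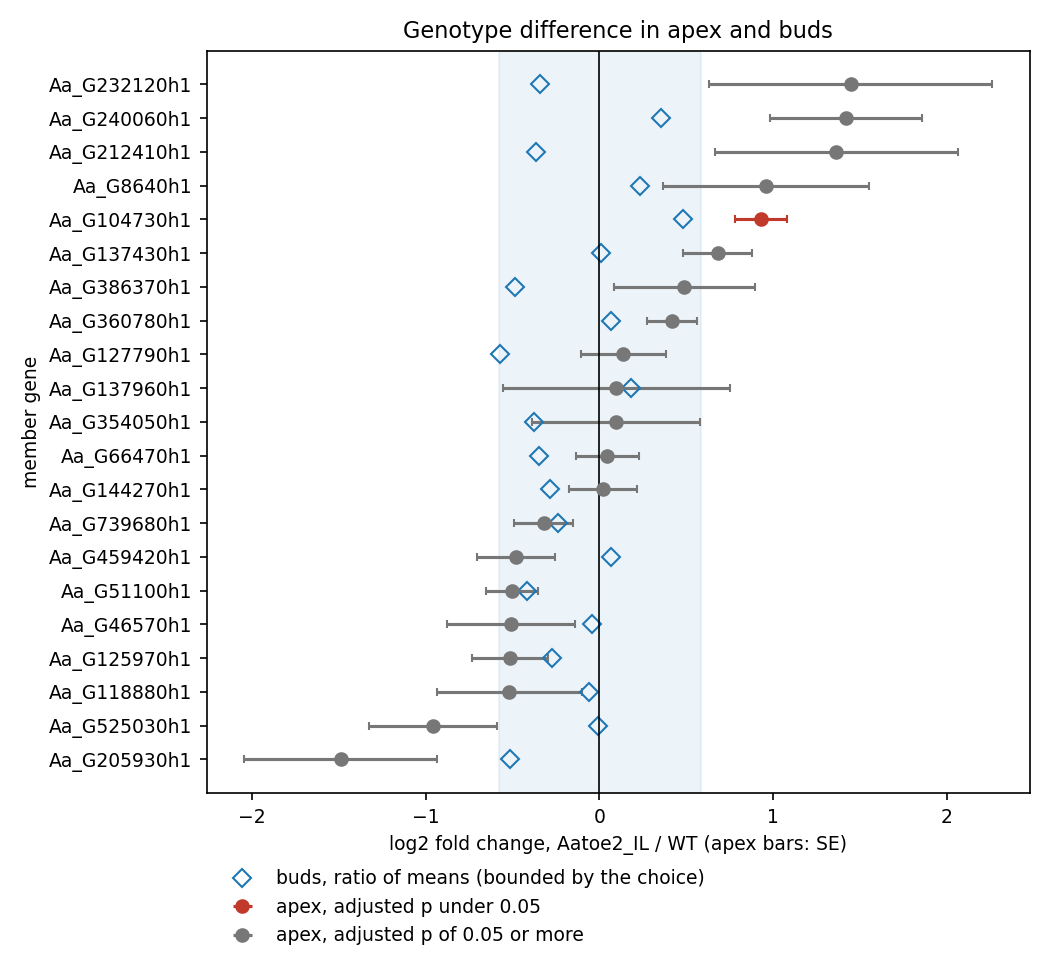
Genotype difference of 21 genes as log2 fold change of Aatoe2_IL over wild type in the apex (filled circles, bars show SE) and as log2 ratio of means in buds (open diamonds, limited by the choice to the shaded band), leaving out 2 genes with at most 3 counts in wild-type apices. Aa_G104730h1, in red, is the gene called in the apex, at 0.93.

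The next smallest adjusted p-values of edgeR in the apex belonged to Aa_G137430h1, Aa_G51100h1 and Aa_G240060h1, and these did not pass. Aa_G137430h1 had 5.96, 6.82 and 7.02 CPM in Aatoe2_IL apices against 4.79, 4.07 and 3.32 CPM in wild-type apices (log2 fold change 0.68, SE 0.20, edgeR adjusted p = 0.116). Aa_G51100h1 had 9.73, 6.61 and 7.69 CPM in Aatoe2_IL apices against 11.5, 11.96 and 10.4 CPM in wild-type apices (log2 fold change -0.50, SE 0.15, edgeR adjusted p = 0.127). It was called, at -0.67, when Aatoe2_IL apex replicate 1 was left out (edgeR adjusted p = 0.0317). Aa_G240060h1 had 1.32, 0.620 and 0.759 CPM in Aatoe2_IL apices against 0.325, 0.415 and 0.249 CPM in wild-type apices (log2 fold change 1.42, SE 0.44, edgeR adjusted p = 0.136). For each of these 3 genes the groups did not overlap. Unlike Aa_G137430h1 and Aa_G51100h1, Aa_G240060h1 is among the 7 genes kept only through the bud libraries. It had 12 counts over the wild-type apices, and nothing is read from its test.

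Among the genes that were lowest in apices, Aa_G268350h1 had 11 counts in Aatoe2_IL apices, 9 of them in replicate 1, and 0 in wild-type apices, at least 3.96-fold more in Aatoe2_IL by the same floor as in buds. Aa_G34780h1 had 29 counts in Aatoe2_IL apices, all in replicates 1 and 3, against 3 in wild-type apices, a ratio of 11.1 (95% interval 3.45 to 57.0). Neither passed edgeR's test (edgeR adjusted p = 0.510 and 0.476), and the intervals and floors cover counting error only. Of the 21 genes with more than 3 counts in both apex groups, 4 had a log2 fold change of at least 1 in size. These were Aa_G232120h1 (1.45), Aa_G240060h1 (1.42), Aa_G212410h1 (1.37) and Aa_G205930h1 (-1.49). All 4 are among the 7 genes kept through the bud libraries, and 0 of the 16 reached this size in the fit of all 12 libraries. The smallest of their adjusted p-values in edgeR was the 0.136 of Aa_G240060h1. Single libraries moved these values. Aa_G212410h1 was 0.78 without Aatoe2_IL apex replicate 1 and 2.06 without wild-type apex replicate 2. Aa_G232120h1 was 2.86 without wild-type apex replicate 1, and Aa_G205930h1 was -2.38 without Aatoe2_IL apex replicate 1. Aa_G8640h1, at 0.96, ranged from 0.06 without Aatoe2_IL apex replicate 1 to 1.46 without Aatoe2_IL apex replicate 3.

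**Figure D4:**
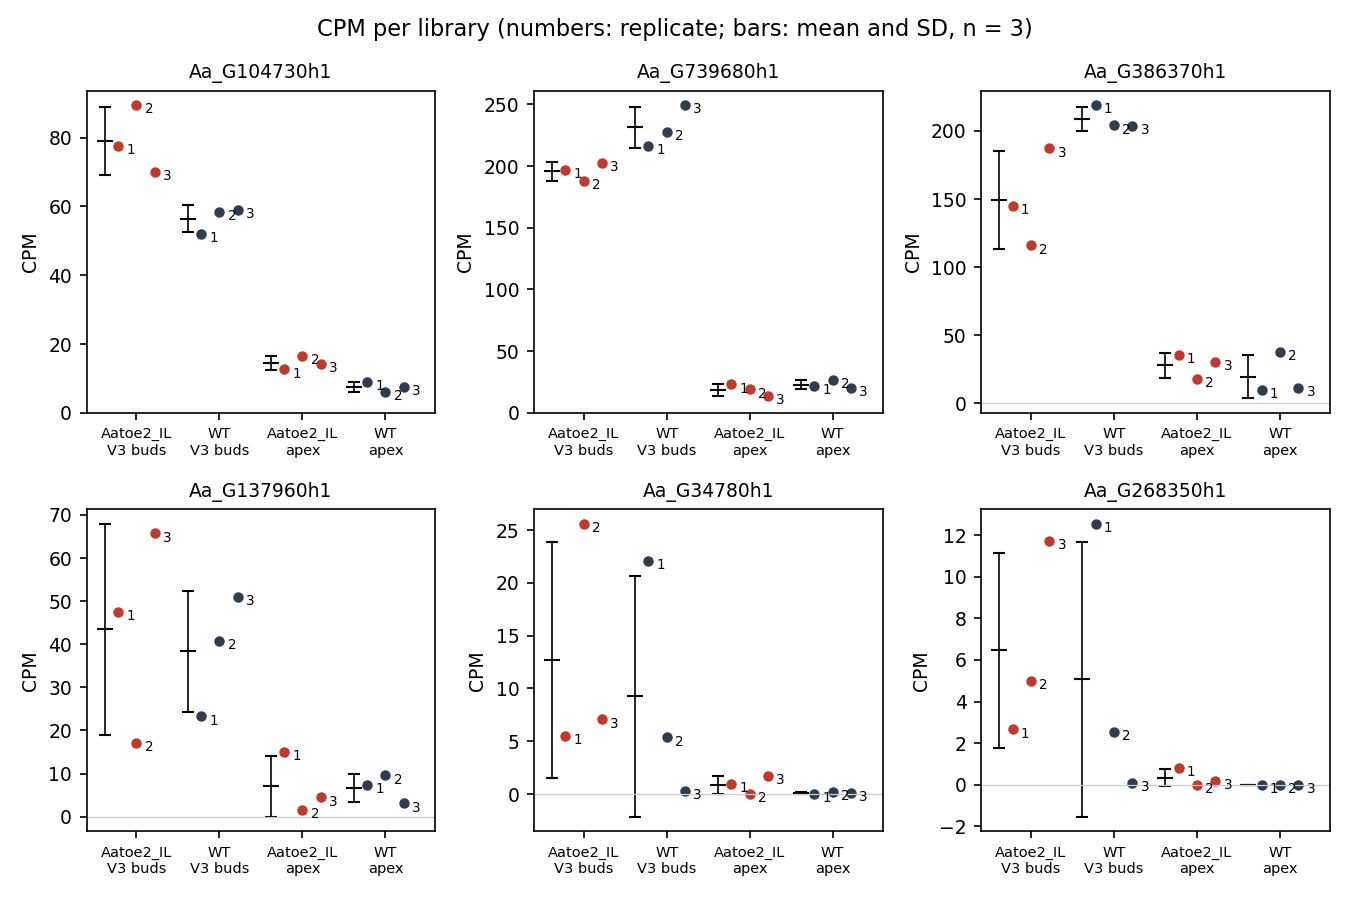
CPM of 6 genes in each library, with the replicate number beside each point and the mean and SD of each group of 3 at its left. Aa_G104730h1 is higher in Aatoe2_IL in both tissues, Aa_G739680h1 and Aa_G386370h1 are the most read, and Aa_G137960h1, Aa_G34780h1 and Aa_G268350h1 spread widely between replicates.

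The replicates of a group differed more for these genes than for most. The median coefficient of variation of the 23 genes was 21.7% in Aatoe2_IL buds and 19.1% in wild-type buds, against 9.30% in Aatoe2_IL buds and 11.4% in wild-type buds over the 15462 genes with a bud mean of at least 5 CPM. In apices it was 30.1% in Aatoe2_IL, and 24.7% in wild type over the 22 genes with reads there, against 8.66% in Aatoe2_IL apices and 9.48% in wild-type apices over the 15462 genes. The part of read depth in this spread was not tested, and the median apex level of the 23 genes was 3.34 CPM. Aatoe2_IL bud replicate 3 was the highest of its group for 15 of the 23 genes, against 27.8% of the 15462 genes. Wild-type bud replicate 1, which also had the largest share of reads outside genes, was the highest of its group for 19 of the 23, against 48.7%, and wild-type bud replicate 3 was the lowest for 17, against 42.3%. Aatoe2_IL apex replicate 1 was the highest of its group for 15, against 38.7%. The part of these libraries in the bud to apex ratios was not tested beyond leaving each out, which kept between 14 and 23 of the 23 genes within the limits, the fewest without Aatoe2_IL bud replicate 3.

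The 6 genes left out by name have a known role, and each missed at least 1 limit. HB53 had a bud genotype ratio of 1.89 and CKX1 of 0.479, and both met all other limits, with bud to apex ratios of 6.68 and 21.6 in Aatoe2_IL and 20.02 and 19.1 in wild type. CKX1 averaged 11.03 ± 3.63 CPM in Aatoe2_IL buds and 23.0 ± 3.93 CPM in wild-type buds (SD, n = 3 each). HB40 missed the bud to apex ratio in Aatoe2_IL (1.91) and the genotype ratio (0.474). NCED3 missed the bud to apex ratio in wild type (2.67) and the genotype ratio (1.93), and its tissues overlapped in wild type. GA20OX2, which makes gibberellin, had a genotype ratio of 0.217 and GA2OX4, which inactivates it, one of 0.325, both with under 5 CPM in Aatoe2_IL buds. GA2OX4 also had a bud to apex ratio of 1.253 in Aatoe2_IL, with overlapping tissues, and so was not enriched in the buds of that genotype. Names exist only for genes that the authors listed as different between the genotypes in one of the tissues of these samples. The directions, calls and medians of named genes, here and below, are therefore not independent evidence.

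Of the list of 23 genes of bud dormancy and branching, 5 had a name, and 1 of these 5 passed in the apex, in the upward direction, beside 0.292% of all genes, with a median log2 fold change of 0.52. HB53 rose in Aatoe2_IL (log2 fold change 2.49, SE 0.46, edgeR adjusted p = 0.0184), a call that was lost without wild-type apex replicate 2 (2.41, edgeR adjusted p = 0.101) or 3 (2.34, edgeR adjusted p = 0.0711). Its value was 1.73 without Aatoe2_IL apex replicate 1. In contrast, HB40 (-0.37), NCED3 (0.11), DRM2 (0.59), a dormancy-associated gene, and SEN1 (0.52), a dark-inducible gene, did not pass. Of 2 named auxin genes, PIN3, an auxin efflux carrier, and SAUR16, a small auxin-induced gene, 2 were called lower by edgeR and by DESeq2, beside 0.809% of all genes in edgeR, with a median log2 fold change of -1.75. The call of SAUR16 (log2 fold change -1.94, SE 0.36, edgeR adjusted p = 0.0184) was lost without replicate 2 or 3 of either apex group. The call of PIN3 (log2 fold change -1.56, SE 0.35, edgeR adjusted p = 0.0434) was lost when any 1 of the 3 wild-type apex libraries, Aatoe2_IL apex replicate 2 or 3, wild-type bud replicate 2 or Aatoe2_IL bud replicate 3 was left out. Over the 12 fits that left out a library the edgeR adjusted p ranged from 0.00970 to 0.122 for SAUR16 and from 0.00487 to 0.224 for PIN3. Of 2 named gibberellin genes 0 passed in edgeR (1 at an unadjusted p under 0.05, 0 by DESeq2), with a median log2 fold change of -0.69. For cytokinin 0 of 2 passed in edgeR (1 at an unadjusted p under 0.05, 1 by DESeq2), with a median of -0.09, and for abscisic acid 0 of 4 (2 at an unadjusted p under 0.05, 0 by DESeq2), with a median of -0.73. Over all genes the median was -0.0042, and 16.1% had an unadjusted p under 0.05. Named genes come from the authors' lists of genotype differences in these samples, so nothing is read from these shares and medians. Of the 15 bud-enriched genes outside the limits on the genotype ratio, 1 passed in the apex, again HB53, beside 0.292% of all genes called higher. Besides HB53 and CKX1, this group held 2 genes with a name, WRKY57, a WRKY transcription factor gene, and NPF7.2, a nitrate transporter gene.

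Markers of other tissues with a name were few, and none of them was enriched in buds as the 23 genes were. The green leaf list had a name for 1 of 10 genes, LHCB1.3, a chlorophyll-binding protein gene. It ranged from 2997 to 4485 CPM in Aatoe2_IL buds and from 1731 to 1797 CPM in wild-type buds, against 2235 to 3034 CPM in Aatoe2_IL apices and 1516 to 2173 CPM in wild-type apices. For phloem 3 of 8 markers had a name (SEOR1, SEOR2 and SWEET12), and their sum ranged from 24.0 to 36.8 CPM in Aatoe2_IL buds and from 8.88 to 18.3 CPM in wild-type buds. The same sum was 36.1 to 59.2 CPM in Aatoe2_IL apices and 75.9 to 80.8 CPM in wild-type apices, so that it lay lower in buds than in apices in wild type. SWEET12 was at 0 in Aatoe2_IL bud replicate 2. Markers of xylem (11), trichomes (8) and roots (9) had 0 names, and the part of such cells in the bud to apex ratios was not tested.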

How the data were processed

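Poly(A) RNA of 12 libraries was read as single reads of 100 bases on a HiSeq2500 after strand-specific library preparation, per the labels' protocols. The table deposited by the authors was of raw read counts for each gene, in whole numbers. It also held 5 counter entries for reads not assigned to a gene, which were left out of the levels. The share of reads outside genes given above is that of the entry for reads in no gene. STAR, HTSeq 0.5.4p1, DESeq and DESeq2 are named without roles in the submitters' processing notes. Build, annotation and strand setting are not given in the sources used here, and overlapping and antisense genes are therefore uncertain. The 4 lists deposited by the authors, which per the file headers hold genes differing more than 2-fold between genotypes at an adjusted p-value below 0.05, were used only for the names of 626 genes, 445 of them with an orthologue.

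Levels are CPM (deposited counts scaled to the reads in genes of each library), as mean ± SD. The apex genotype comparison used edgeR 4.0.16 in R 4.3.3 (quasi-likelihood F test, TMM normalization, default filter on low counts, 1 fit of 4 groups with 8 residual degrees of freedom, Benjamini-Hochberg adjustment over 19520 genes, threshold 0.05). Each SE was obtained from the log2 fold change and the square root of its F. The scripts were tested on simulated data. A group with 0 counts was set to a floor of 3, taken over its libraries, and ratios against a group with 1 to 3 counts have an exact 95% interval. Both cover counting error only. Reads in genes ranged from 9411616 to 12309478 per library. No pair of libraries of 1 group agreed within sampling noise (chi-square per degree of freedom 3.29 or more).

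The text names members past the apex threshold, the most read, those with the largest bud to apex ratio and those nearest each limit of the choice. The other members named were added after their values had been seen. The members and the gene lists were chosen with earlier results of these data known. Alternatives were DESeq2 1.42.0, other scalings, no filter, apex libraries alone, the replicate number as a block, other limits and leaving out each library. The tissue comparisons and the genotype comparison in buds chose the members and were not tested.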

Additional observations from a re-analysis of the deposited data

How the results depend on the processing

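The number of genes within the limits was 23, and 55 with a bud to apex ratio of at least 2, 13 with a bud mean of at least 10 CPM, 47 with one of at least 1 CPM and 11 with a genotype ratio between 0.8 and its inverse. Leaving out each library gave 17 to 25 genes. Scaling by TMM or by DESeq2 size factors gave 24 and 25, of which 21 each were shared with the 23, and 9 of the 23 met the limits under both scalings and without each library in turn. In the apex, 215 genes were called by edgeR over all genes, against 596 by DESeq2, 400 without a filter on low counts, 129 in apex libraries alone and 35 to 698 without each library. Among the 23 genes the number called higher was 1 in all these fits except when replicate 2 of either apex group was left out (range 0 to 1), and the number called lower was 0 except without Aatoe2_IL apex replicate 1 (range 0 to 1). With the replicate number as a block, 314 genes were called, with the same 1 of the 23. Correlations of deviations between same-numbered apex libraries were -0.0557, -0.339 and 0.127. Of these libraries, 0 of 3 Aatoe2_IL and 1 of 3 wild-type libraries correlated best with their own number. The labels do not say what a number marks. With 3 libraries per group, these values cannot decide whether a number marks a batch shared across genotypes. Between buds and apices of a genotype the correlations were 0.499, 0.412 and 0.328 in Aatoe2_IL and 0.422, 0.0823 and 0.314 in wild type, a relation that the fit of all 12 libraries left out. The fit of apex libraries alone is free of it, and there Aa_G104730h1 was called with an edgeR adjusted p of 0.0442.

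Of the 23 apex fold changes, 18 kept their direction and their side of the threshold in every alternative run, which were 17 for 16 genes and 16 for the 7 genes that did not pass the filter on apex libraries alone. Signs turned for 3 of the 23 and for NCED3, none of which was called. Aa_G137960h1 (0.10) was -0.017 with the block and ranged from -1.12 to 0.55 over the fits that left out a library, being below 0 without Aatoe2_IL apex replicate 1 (-1.12) or wild-type apex replicate 3 (-0.24). Aa_G144270h1 (0.02) ranged from -0.18 without Aatoe2_IL apex replicate 1 to 0.15, and was -0.08 without wild-type apex replicate 2. Aa_G354050h1 (0.09) ranged from -0.071 without Aatoe2_IL apex replicate 1 to 0.29. NCED3 (0.11) ranged from -0.70 without Aatoe2_IL apex replicate 1 to 0.47, and was -0.14 without wild-type apex replicate 3. In apex libraries alone HB53 (2.49, edgeR adjusted p = 0.0709) and PIN3 (-1.55, edgeR adjusted p = 0.0639) were not called. The causes were not tested. Depth limits the genes under 1 CPM in apices, which rest on few reads.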
